A study of Mus musculus with 26 samples.

Results

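Collagens and small leucine-rich proteoglycans, the structural proteins of the extracellular matrix and the small proteins that decorate its fibrils, were followed in RNA sequencing of mouse striatum from models of Huntington's disease. The members were chosen by name: every gene whose symbol in the authors' deposited tables is a collagen chain (Col, a number, a, a number), together with Dcn, Lum, Fmod, Bgn, Ogn, Prelp, Omd and Aspn. They number 41 of the 14833 genes in any of the 5 tables, with 33 collagen chains and 8 proteoglycans, and 23 of them stand in all 5 tables. A further 10 collagen chain genes that are in the class lists had a row in no table and were not analysed here.

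The 26 libraries form 9 groups. R6/1 mice, which carry a transgene with exon 1 of human huntingtin and its expanded repeat, were set against wild type at 4 weeks and at 8 weeks, with 3 libraries in each group. CHL2 mice, the other model in the labels, were set against wild type at 1 year, again with 3 libraries each. At 10 weeks all mice carried an adeno-associated virus (AAV): R6/1 with Elk-1 AAV (4 libraries), R6/1 with control AAV (2 libraries) and wild type with control AAV (2 libraries). The names of the groups in the tables give the control vector as mCherry. Elk-1 belongs to the ETS transcription factors. The sources used here do not give strain background, sex, repeat length or the promoter in the vectors, nor do they state whether the libraries of a group came from separate animals.

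Each table holds 1 pooled FPKM (fragments per length of transcript and sequencing depth) per group and gene, a log2 fold change and a q-value from the authors' program. No value per library was available here, so no SD or replicate count stands beside a value, depth is unknown, and a gene is called higher or lower only where the authors' deposited q is below 0.05. Those p-values reflect only how these libraries varied, and part of that variation may be technical. In pooled tissue, fewer cells of a type and less RNA per cell cannot be told apart.

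Collagens are made of chains wound around each other into a rigid helix. The fibrillar types, among them I, II, III, V and XI, assemble into fibrils. Type IV forms the mesh of basement membranes, which in brain lies mostly around blood vessels. Type VI forms beaded filaments, type VIII forms networks under endothelia, FACIT collagens sit on the surface of fibrils, and transmembrane collagens are anchored in the cell surface. Small leucine-rich proteoglycans bind fibrils and several growth factors. In brain, fibrillar collagens and these proteoglycans are found chiefly in the meninges, in the walls of larger vessels and in the stroma of the choroid plexus, and the neural tissue itself holds little of them.

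The pools differed in markers of the striatum and of its neighbours, and these values stand before the results because they may bear on them. All 17 listed striatal projection neuron markers were detected, and their summed level was 3329 FPKM in R6/1 at 4 weeks against 4173 in wild type in the authors' deposited tables. The same sum was 1912 against 4711 at 8 weeks, 2386 in CHL2 against 4308 in wild type at 1 year, and 1700 against 3498 at 10 weeks with control AAV. The 14 choroid plexus markers summed to 809 FPKM in R6/1 at 8 weeks against 1949 in wild type, with 10 called lower, but to 1901 in R6/1 with control AAV against 503 in wild type with control AAV, with 8 called higher, in the authors' deposited tables. Among these 8, F5 and Prlr are listed with control AAV only through R6/1, so they had to be higher. Hypothalamus and septum markers summed to 482 FPKM in R6/1 with control AAV against 79.1 in wild type, and to 52.8 in R6/1 with Elk-1 AAV against 492 in R6/1 with control AAV. In CHL2 they summed to 227 FPKM against 99.5 in wild type, and 11 of 15 were called higher in the authors' deposited table. In R6/1 they summed to 78.2 FPKM against 154 in wild type at 4 weeks, with 6 of 13 called lower, and to 46.4 against 31.7 at 8 weeks, with 1 called higher. The Elk1 gene itself stood at 30.1 FPKM with Elk-1 AAV against 15.1 with control AAV (log2 fold change 1.00, q = 0.0122, authors' deposited table).

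By level, most members were low. FPKM is scaled per length, so levels of different genes can be set side by side, though the tables were normalized separately. Col6a1, a chain of type VI, had the highest mean over its group values, 31.2 FPKM, and ranged between 13.3 and 51.0 FPKM in the authors' deposited tables. Col9a3, a FACIT chain, followed with a mean of 14.5 FPKM, and Col25a1, a transmembrane collagen, with 12.6 FPKM. The basement membrane chains Col4a2 and Col4a1 averaged 9.91 and 7.37 FPKM. Dcn, encoding decorin, was the highest proteoglycan at 6.85 FPKM, and Prelp came next at 6.43 FPKM. Only 3 members averaged over 10 FPKM, and 22 averaged under 2 FPKM. The main chains of the classical fibrils, Col1a1 and Col3a1, averaged 1.35 and 0.931 FPKM.

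**Figure D1:**
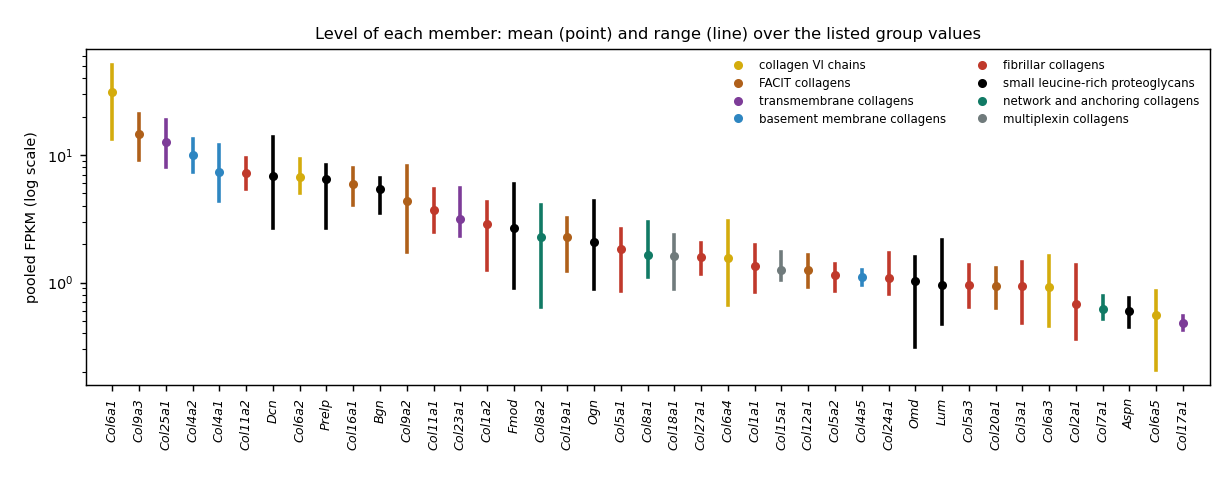
Mean level (point) and range from the lowest to the highest (line) of the 41 members over their listed group values, in pooled FPKM on a log axis, coloured by class. Col6a1 stands highest at a mean of 31.2 FPKM, and fibrillar chains and most proteoglycans lie to the right of it at lower levels.

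The number of members called differed between the tables and so did their direction. Of 39 listed members, 0 were called higher and 1 lower in R6/1 at 4 weeks, where 0.275% and 0.193% of all 14539 rows were called in these directions (0.468% in either) in the authors' deposited table. At 8 weeks 2 of 38 were called higher and 8 lower, where 0.789% and 5.34% of 14320 rows were (6.12% in either direction). In CHL2 at 1 year 4 of 39 were called higher and 1 lower, where 1.67% and 1.97% of 14402 rows were (3.65% in either direction). In R6/1 with control AAV at 10 weeks 4 of 27 were called higher and 1 lower, where 0.724% and 2.51% of 12980 rows were (3.24% in either direction). With Elk-1 AAV 0 of 26 were called in either direction by the authors' program, Cuffdiff, where 0.299% of 12701 rows were called higher and 0.276% lower (0.575% in either direction). At an unadjusted p below 0.05 there were 1 higher and 5 lower members there, where 4.91% of rows passed. These counts carry no test of their own, and differences between the comparisons were not tested.

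In all, 15 members were called in at least 1 table and 26 in none. Of the 15, 6 were called more than once: Dcn and Fmod were higher on both occasions, Col6a4 was lower on both, and Col8a2, Col9a3 and Col23a1 were called in opposite directions in different tables. The median change over the listed members on the log2(FPKM + 1) scale was -0.048 at 4 weeks, -0.034 at 8 weeks, 0.083 in CHL2, 0.48 with control AAV and -0.13 under Elk-1 AAV. Over all rows without small RNAs the medians were 0.001, 0.005, 0.002, 0.014 and 0.013. In CHL2, genes with transcripts at least as long as the members' lower quartile had a median of 0.084. The tables are cut at a low level, and in the 10-week tables this removes more members: no row there has both groups under 1.10 and 1.26 FPKM. In the genotype table with control AAV, Col18a1, Col1a1, Col3a1, Col8a2, Lum and Omd are listed only because their R6/1 value passes that level, and Col24a1 only through wild type. In the Elk-1 table Col8a1 is listed only through Elk-1 AAV, and Col3a1, Lum and Omd only through control AAV. Such genes had to differ, so the 10-week median is no support for a shift of the members as a whole.

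**Figure D2:**
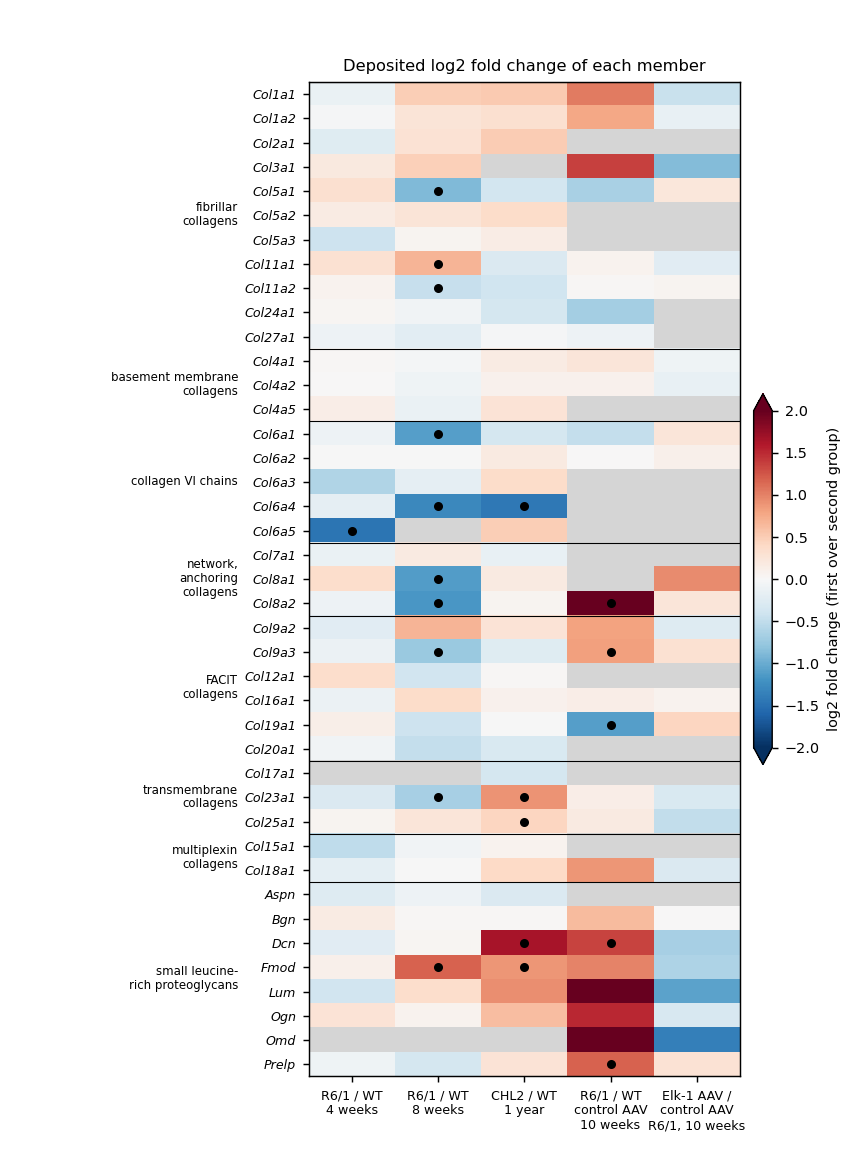
Log2 fold change of every listed member in the authors' deposited tables, first over second group, by class and comparison; colours end at -2 and 2, dots mark q below 0.05 and grey marks genes with no row. The dotted cells are mostly blue in R6/1 at 8 weeks (8 lower, 2 higher) and mostly red in CHL2 and in R6/1 with control AAV (4 higher, 1 lower in each).

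The small leucine-rich proteoglycans had a higher summed level in CHL2 and in R6/1 with control AAV, with 2 members called in each. The sum was 31.1 FPKM in CHL2 against 18.5 in wild type at 1 year, with 6 of 7 values higher and Dcn and Fmod called, in the authors' deposited table, and most of the gap came from Dcn alone, at 13.9 FPKM against 4.41. The lower value, that of Aspn, had to be lower, since it is listed there only through wild type. With control AAV at 10 weeks the sum was 36.7 FPKM in R6/1 against 15.9 in wild type, with Dcn and Prelp called. All 7 values were higher there, but Lum and Omd had to be, since they are listed only through R6/1. In R6/1 without a vector the sums lay close together, at 18.3 against 18.4 FPKM at 4 weeks and 23.1 against 22.9 FPKM at 8 weeks. With Elk-1 AAV the sum was 29.6 FPKM against 37.6 with control AAV, with 0 called. Lum and Omd had to be lower there, since they are listed only through control AAV, and of the other 5 the values of Dcn, Fmod and Ogn were lower. The R6/1 control-AAV pool stands in both 10-week comparisons, so the higher values in one and the lower values in the other rest in part on the same libraries.

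Dcn encodes decorin, a proteoglycan of fibrillar matrix that binds collagen and transforming growth factor beta. It stood at 13.9 FPKM in CHL2 against 4.41 in wild type at 1 year (log2 fold change 1.65, q = 0.00303, authors' deposited table). With control AAV it stood at 11.6 FPKM in R6/1 against 4.55 in wild type (1.35, q = 0.0135, authors' deposited table). The wild-type values of these tables, which were normalized separately, were thus close to each other. At 8 weeks Dcn was 4.55 FPKM in R6/1 against 4.45 in wild type, and at 4 weeks 2.68 FPKM against 3.12, neither of them called in the authors' deposited tables. With Elk-1 AAV Dcn was 7.46 FPKM against 11.8 with control AAV (-0.67, p = 0.0128, q = 0.583, not called in the authors' deposited table).

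Fmod encodes fibromodulin, which binds type I collagen and governs fibril assembly. It rose in R6/1 at 8 weeks, with 2.78 FPKM against 1.22 in wild type (log2 fold change 1.18, q = 0.00300, authors' deposited table), and in CHL2, with 1.68 FPKM against 0.913 (0.88, q = 0.0329, authors' deposited table). At 4 weeks its values were 0.986 FPKM in R6/1 and 0.920 in wild type, and it was not called. In R6/1 with control AAV it was 5.79 FPKM against 2.90 in wild type, a log2 fold change of 1.00 that was not called (q = 0.164, authors' deposited table). Elk-1 AAV gave 3.85 FPKM against 5.93 with control AAV (-0.62, q = 0.921, not called in the authors' deposited table). The Fmod value was thus the higher one in the mutant in each of the 4 genotype tables and the lower one with Elk-1 AAV.

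Prelp encodes a proteoglycan of connective tissue with an arginine- and proline-rich end that binds heparan sulfate. It was called once, higher in R6/1 with control AAV at 6.06 FPKM against 2.68 in wild type (log2 fold change 1.18, q = 0.0369, authors' deposited table). The wild-type value of that comparison was the lowest of its 10 group values. In the other tables Prelp stood at 5.85 FPKM in R6/1 against 6.22 in wild type at 4 weeks, 6.57 against 8.34 at 8 weeks, 8.09 in CHL2 against 6.69 in wild type, and 7.58 with Elk-1 AAV against 6.21 with control AAV, none of them called.

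Lum encodes lumican, a regulator of fibril spacing in the cornea and other connective tissue. It was low throughout and called in no table. Its largest difference was 2.09 FPKM in R6/1 with control AAV against 0.508 in wild type (log2 fold change 2.04, q = 0.209, authors' deposited table). In CHL2 it stood at 1.04 FPKM against 0.549 (q = 0.119), and with Elk-1 AAV at 1.01 FPKM against 2.14 with control AAV (q = 0.928, authors' deposited tables). At 4 weeks it was 0.472 FPKM in R6/1 and 0.615 in wild type, and at 8 weeks 0.600 and 0.472 FPKM. Lum lies next to Dcn on chromosome 10. In both 10-week tables it is listed only through the R6/1 control-AAV pool, so that its side there was fixed by the listing.

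Ogn, Omd and Aspn encode osteoglycin, osteomodulin and asporin, proteins of bone and other connective tissue that lie in a cluster. The authors' tables give them 1 listed position together with Cenpp and Ecm2, so their values may hold shared reads. None of them was called. Ogn was 4.22 FPKM in R6/1 with control AAV against 1.48 in wild type (q = 0.393) and 3.45 with Elk-1 AAV against 4.32 with control AAV (authors' deposited tables). Elsewhere Ogn was 1.09 FPKM in R6/1 against 0.899 in wild type at 4 weeks, 1.54 against 1.46 at 8 weeks, and 1.38 in CHL2 against 0.895. Omd is listed only at 10 weeks, at 1.55 FPKM in R6/1 with control AAV against 0.313 in wild type (q = 0.856) and at 0.619 FPKM with Elk-1 AAV against 1.59 with control AAV. Aspn is listed only in the other tables, at 0.628 FPKM in R6/1 against 0.750 in wild type at 4 weeks, 0.589 against 0.631 at 8 weeks and 0.446 in CHL2 against 0.546. In CHL2 Aspn is listed only through wild type, so that its side there was fixed by the listing.

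Bgn encodes biglycan, the closest relative of decorin, and showed little difference. It was 6.56 FPKM in R6/1 against 5.87 in wild type at 4 weeks, 6.43 against 6.36 at 8 weeks, 4.60 in CHL2 against 4.55 in wild type and 5.59 FPKM in each group of the Elk-1 comparison. With control AAV it was 5.45 FPKM in R6/1 against 3.50 in wild type (log2 fold change 0.64, q = 0.553, not called in the authors' deposited table). The relatives outside the member list were not called either: of the 10 other small leucine-rich proteoglycans, 6 were listed in each table without a vector, 4 in the genotype table with control AAV and 3 in the Elk-1 table, and 0 were called in any.

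**Figure D3:**
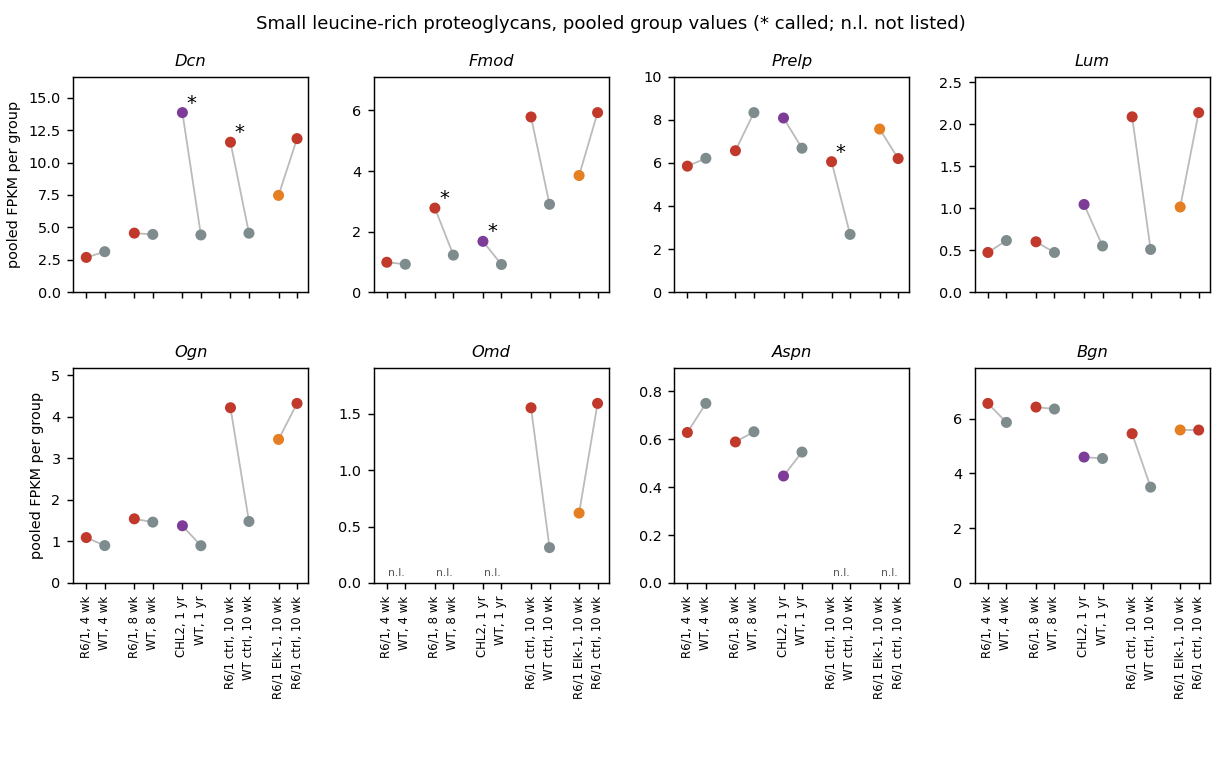
Pooled FPKM of the 8 small leucine-rich proteoglycans in each group of the 5 comparisons (each pair joined by a line, first group left); asterisks mark q below 0.05 and n.l. marks genes with no row. Dcn, Fmod, Lum, Ogn and Omd have their highest levels in the R6/1 control-AAV pool or, for Dcn, in CHL2 at 13.9 FPKM.

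Because Fmod and Prelp are neighbours on chromosome 1 and were called in different tables, and because Col8a2 was called in both directions, the 250 bases before the annotated start of these genes are shown. They are RefSeq promoter sequences on GRCm38.p6, while the positions listed by the authors are on mm9. Both strands were searched for the TATA box core TATAAA, the CCAAT box, the GC box GGGCGG, and CCGGAA, a form of the site that ETS factors such as Elk-1 bind. Shorter or other forms of the ETS site were not searched for. Capitals mark the matches.
Fmod (chr1:134037004-134037253, plus strand): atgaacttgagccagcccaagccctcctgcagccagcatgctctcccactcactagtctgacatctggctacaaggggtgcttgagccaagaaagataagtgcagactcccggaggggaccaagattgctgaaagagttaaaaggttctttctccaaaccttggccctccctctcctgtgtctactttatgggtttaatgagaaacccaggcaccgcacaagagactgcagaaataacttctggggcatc
Prelp (chr1:133921402-133921651, minus strand): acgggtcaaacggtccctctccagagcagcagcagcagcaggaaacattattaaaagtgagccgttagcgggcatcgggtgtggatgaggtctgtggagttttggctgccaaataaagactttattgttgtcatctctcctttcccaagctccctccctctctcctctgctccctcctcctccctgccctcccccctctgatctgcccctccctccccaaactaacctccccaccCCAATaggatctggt
Col8a2 (chr4:126286544-126286793, plus strand): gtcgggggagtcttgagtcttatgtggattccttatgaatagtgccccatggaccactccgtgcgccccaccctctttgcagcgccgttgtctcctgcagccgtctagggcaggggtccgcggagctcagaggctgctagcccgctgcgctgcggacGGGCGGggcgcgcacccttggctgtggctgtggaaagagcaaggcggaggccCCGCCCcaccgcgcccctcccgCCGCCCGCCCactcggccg
Fmod held none of the motifs in this window. Prelp held a CCAAT box from -15 to -11, counted from the start site. Col8a2 held GGGCGG on the plus strand at -93 and its reverse complement at -41, -19 and -15, of which the last pair overlap.

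Promoters were matched for 34 of the 41 members, and Dcn, Lum, Col12a1, Col1a1, Col2a1, Col5a2 and Col9a3 had no entry. GGGCGG was present on either strand in 20 of the 34 (58.8%), against 32.9% of 27025 promoters of the same length, and the median GC content was 58.4% against 52%. CCAAT was present in 14 (41.2% against 34.5%) and TATAAA in 5 (14.7% against 12.97%). CCGGAA was present in 0 of 34, against 12.2% of all promoters. A match is only a run of letters and does not show a binding site, and its absence concerns these letters in this window alone.

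Collagen VI held the member with the highest level, and 2 of its 4 listed chains, Col6a1 and Col6a4, fell in R6/1 at 8 weeks. Col6a1 was 13.3 FPKM in R6/1 at 8 weeks against 28.6 in wild type (log2 fold change -1.11, q = 0.00160, authors' deposited table). In each other genotype comparison the mutant value was also the lower one without a call: 34.2 against 36.7 FPKM at 4 weeks, 40.2 in CHL2 against 51.0, and 23.4 in R6/1 with control AAV against 32.4 (authors' deposited tables). With Elk-1 AAV it was 28.4 FPKM against 23.97 with control AAV, not called. Its partner chain Col6a2, which joins Col6a1 in the same molecule, did not follow at 8 weeks, with 4.99 FPKM in R6/1 and 5.03 in wild type. The ratio of Col6a1 to Col6a2 was therefore 2.66 in R6/1 against 5.69 in wild type at 8 weeks, while it was 5.88 against 6.24 at 4 weeks, 4.36 in CHL2 against 6.24, 3.39 against 4.71 with control AAV and 3.76 with Elk-1 AAV against 3.39.

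The later chains of type VI, Col6a4 and Col6a5, can take the place of the third chain and lie next to each other on chromosome 9. Col6a4 was called lower in R6/1 at 8 weeks, at 0.666 FPKM against 1.62 in wild type (log2 fold change -1.28, q = 0.00160, authors' deposited table). It was also called lower in CHL2, at 1.14 FPKM against 3.06 in wild type (-1.42, q = 0.00303, authors' deposited table), and was the only member called lower in that table. At 4 weeks Col6a4 was 1.31 FPKM in R6/1 and 1.48 in wild type, not called, and it has no row in the 10-week tables. Col6a5 was the 1 member called at 4 weeks, at 0.206 FPKM in R6/1 against 0.565 in wild type (-1.46, q = 0.0145, authors' deposited table). It is listed there only through its wild-type value. In CHL2 Col6a5 lay the other way, at 0.854 FPKM against 0.610 (0.49, q = 0.233, not called).

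Fibrillar chains were called in both directions in R6/1 at 8 weeks. Col11a1, a regulator of fibril width, was called higher in R6/1 at 3.98 FPKM against 2.49 in wild type (log2 fold change 0.68, q = 0.00160, authors' deposited table). Its partner Col11a2 was called lower, at 6.07 FPKM against 8.40 (-0.47, q = 0.0205, authors' deposited table). The ratio of Col11a1 to Col11a2 was thus 0.656 in R6/1 against 0.296 in wild type, while in CHL2 it was 0.627 against 0.582. Col5a1, which nucleates type I fibrils, was also called lower at 8 weeks, at 0.866 FPKM against 1.60 (-0.89, q = 0.00160, authors' deposited table). In other tables these 3 genes were not called: Col5a1 was 1.77 FPKM in CHL2 against 2.29 and 1.67 in R6/1 with control AAV against 2.62, but 2.20 in R6/1 against 1.76 at 4 weeks. In CHL2 Col11a1 lay the other way than at 8 weeks, at 4.44 FPKM against 5.42 (q = 0.274). Col11a2 was again lower in CHL2, at 7.08 FPKM against 9.31 (q = 0.0513). In R6/1 at 4 weeks and with control AAV the Col11a1 and Col11a2 values were the higher ones.

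The chains of the classical fibrils, types I and III, were called in no table. Col1a1 was 1.43 FPKM in R6/1 against 1.02 in wild type at 8 weeks (q = 0.342), 1.20 in CHL2 against 0.837 (q = 0.263) and 1.93 in R6/1 with control AAV against 0.941 (log2 fold change 1.04, q = 0.313, authors' deposited tables). With Elk-1 AAV it was 1.46 FPKM against 1.98 with control AAV. Its partner chain Col1a2 was 4.15 FPKM in R6/1 with control AAV against 2.43 in wild type (q = 0.228) and 3.83 with Elk-1 AAV against 4.25 with control AAV. Col3a1 was 1.41 FPKM in R6/1 with control AAV against 0.548 in wild type (1.36, q = 0.161) and 0.792 with Elk-1 AAV against 1.44 with control AAV (-0.86, q = 0.841, authors' deposited tables). The side on which Col1a1 lay with control AAV, and Col3a1 in both 10-week tables, was set by the level at which these tables are cut.

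Basement membrane collagen was steady within each comparison. Col4a1 and Col4a2, which join in the type IV molecule of vessel walls and lie next to each other on chromosome 8, were called in no table. Col4a2 was 13.3 FPKM in both groups at 4 weeks, 9.56 in R6/1 against 10.2 in wild type at 8 weeks, 11.3 in CHL2 against 10.7, 7.91 in R6/1 with control AAV against 7.48 and 7.32 with Elk-1 AAV against 8.10 (authors' deposited tables). Col4a1 was 12.1 against 11.9, 8.04 against 8.27, 7.28 against 6.48, 5.11 against 4.33 and 4.91 against 5.24 FPKM in the same order. The ratio of Col4a1 to Col4a2 was between 0.579 and 0.908 over all groups. Endothelial markers, summed over the 10 to 13 listed, gave 192 against 195 FPKM at 4 weeks, 192 against 201 at 8 weeks, 168 in CHL2 against 193, 98.3 in R6/1 with control AAV against 124 and 131 with Elk-1 AAV against 98.7. Mural cell markers summed to 120 against 119, 131 against 125, 94.7 against 107, 82.6 against 74.2 and 88.1 against 84.6 FPKM, with Acta2 called higher at 8 weeks and no other gene of that list called. Of the endothelial list only Ly6c1 was called, higher with Elk-1 AAV.

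Type VIII collagen and the FACIT chain Col9a3 were lower in R6/1 at 8 weeks and, where listed, higher in R6/1 with control AAV. Col8a2 was 1.26 FPKM in R6/1 at 8 weeks against 2.83 in wild type (log2 fold change -1.16, q = 0.00160, authors' deposited table). With control AAV it was 3.33 FPKM in R6/1 against 0.642 in wild type (2.38, q = 0.00312, authors' deposited table), the largest change of any called member. Col8a2 is listed there only through the R6/1 value, so it had to be higher. In the other tables it was not called, with 1.79 FPKM in R6/1 against 1.92 in wild type at 4 weeks and 1.76 in CHL2 against 1.70, and with Elk-1 AAV it was 4.04 FPKM against 3.41 with control AAV. Its partner Col8a1 was called lower at 8 weeks, at 1.38 FPKM against 2.99 (-1.12, q = 0.00160, authors' deposited table), and has no row in the genotype table with control AAV. With Elk-1 AAV Col8a1 was 2.23 FPKM against 1.16 (0.94, p = 0.00915, q = 0.507, not called in the authors' deposited table), and it is listed there only through the Elk-1 value, so it had to be higher. At 4 weeks Col8a1 was 1.42 FPKM in R6/1 against 1.11 in wild type, and in CHL2 it was 1.54 against 1.36, not called.

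Col9a3, a chain of type IX, was 9.14 FPKM in R6/1 at 8 weeks against 15.3 in wild type (log2 fold change -0.75, q = 0.00160, authors' deposited table). With control AAV it was 16.6 FPKM in R6/1 against 9.37 in wild type (0.83, q = 0.0217, authors' deposited table). It was not called at 4 weeks (13.8 FPKM in R6/1 against 14.9), in CHL2 (12.9 FPKM against 15.4) or with Elk-1 AAV (21.0 FPKM against 17.0 with control AAV). Its listed position is shared with Tcfl5, whose values where listed were at or under 1.47 FPKM. The partner chain Col9a2 went the other way at 8 weeks, at 2.77 FPKM in R6/1 against 1.74 in wild type (q = 0.0867, not called), so the ratio of Col9a3 to Col9a2 was 3.30 in R6/1 against 8.82. Col19a1, a FACIT chain found at synapses of interneurons, was called once, lower in R6/1 with control AAV at 1.24 FPKM against 2.66 (-1.10, q = 0.0188, authors' deposited table). At 8 weeks it was 2.40 FPKM against 3.20 (q = 0.0857, not called).

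Choroid plexus markers stand beside Col8a1, Col8a2 and Col9a3. Their summed level was lower in R6/1 at 8 weeks, higher in R6/1 with control AAV, and 2805 FPKM with Elk-1 AAV against 1947 with control AAV, with Kl called (authors' deposited table). All 14 markers had lower values at 8 weeks and all 14 had higher values with control AAV, where some, such as Cldn2 at 2.46 FPKM against 0.540, are listed only through R6/1. Col8a1, Col8a2 and Col9a3 were called neither with Elk-1 AAV nor at 4 weeks nor in CHL2. The marker sum was 934 FPKM in R6/1 against 785 in wild type at 4 weeks, with 0 called. In CHL2 it was 1238 FPKM against 1655, with 0 called and 7 of 14 values higher. None of the 14 was listed at 0 in any group. Their part in the collagen differences was not tested.

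**Figure D4:**
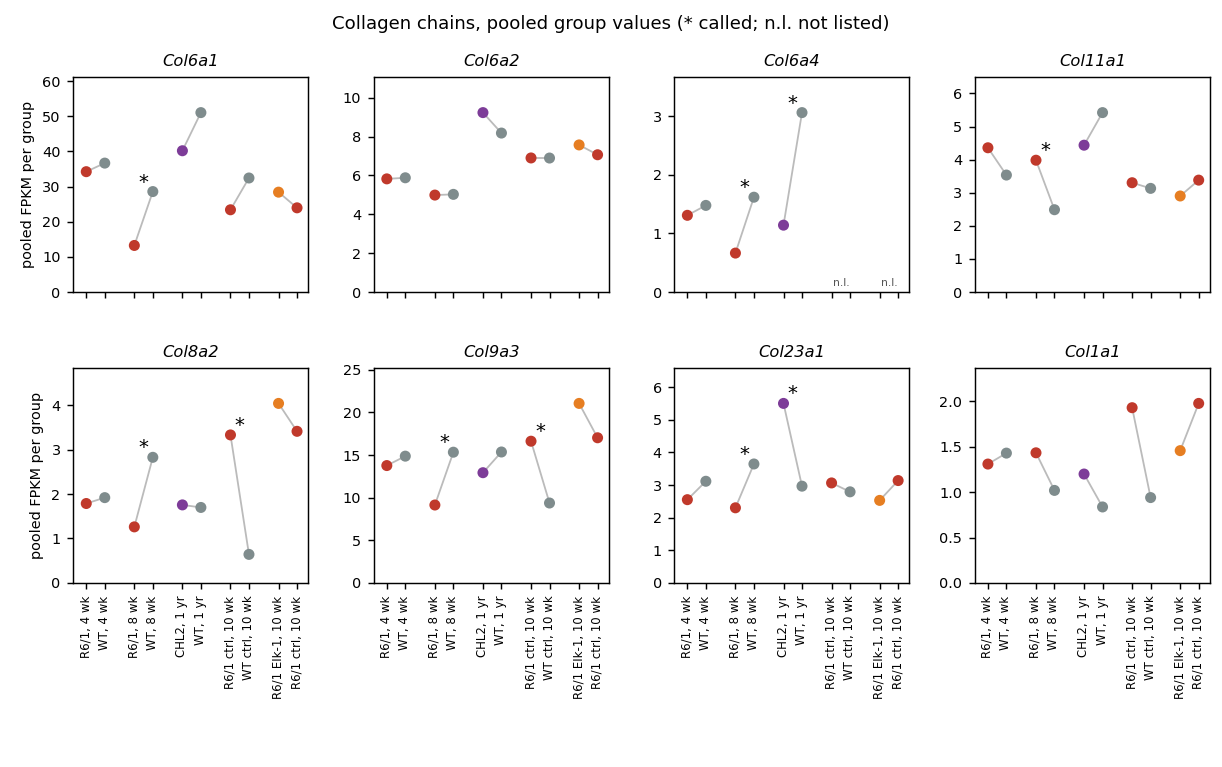
Pooled FPKM of 8 collagen chains in each group of the 5 comparisons (each pair joined by a line, first group left); asterisks mark q below 0.05 and n.l. marks genes with no row. Col6a1 drops to 13.3 FPKM in R6/1 at 8 weeks while Col6a2 stays near 5 FPKM. Col8a2 and Col9a3 lie below wild type at 8 weeks and above it with control AAV, where Col8a2 is listed only through R6/1.

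Of the transmembrane collagens, Col25a1 and Col23a1 were called. Col25a1, a neuronal collagen whose shed part is found in amyloid plaques, was called higher in CHL2, at 18.8 FPKM against 14.1 in wild type (log2 fold change 0.42, q = 0.00932, authors' deposited table). Its R6/1 values were the higher ones in all 3 R6/1 genotype comparisons without a call: 13.02 against 12.5 FPKM at 4 weeks, 15.1 against 12.7 at 8 weeks and 10.98 against 9.71 with control AAV. With Elk-1 AAV it was 8.01 FPKM against 11.2 with control AAV (-0.49, p = 0.00735, q = 0.462, not called in the authors' deposited table). Col23a1 was called in both directions: lower in R6/1 at 8 weeks, at 2.30 FPKM against 3.65 (-0.66, q = 0.0121), and higher in CHL2, at 5.50 FPKM against 2.97 (0.89, q = 0.00303, authors' deposited tables). At 4 weeks it was 2.55 FPKM in R6/1 against 3.12, with control AAV 3.06 against 2.79, and with Elk-1 AAV 2.53 FPKM against 3.14, not called. The multiplexin chains Col15a1 and Col18a1, of basement membrane zones, were not called: Col18a1 was 2.35 FPKM in CHL2 against 1.79 and 1.64 in R6/1 with control AAV against 0.892. The remaining members were called in no table either: Col2a1, Col5a2, Col5a3, Col24a1, Col27a1, Col4a5, Col6a3, Col7a1, Col12a1, Col16a1, Col20a1 and Col17a1. Their levels lay between 0.359 FPKM, for Col2a1, and 7.86 FPKM, for Col16a1, in the authors' deposited tables.

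The machinery that makes collagen was followed in a list of 28 processing enzymes and chaperones. At 4 weeks 0 of 25 listed genes were called. At 8 weeks 3 of 24 fell in R6/1 and 0 rose: P4ha1, a subunit of the prolyl hydroxylase that stabilises the helix, at 12.1 FPKM against 18.5 in wild type, and the procollagen proteases Adamts2 (1.98 against 3.12) and Adamts3 (8.53 against 13.04 FPKM, authors' deposited table). Adamts3, which in mouse acts on the growth factor VEGF-C as well as on procollagen, also fell in CHL2, at 8.59 FPKM against 12.9, as 1 of 24. It fell again in R6/1 with control AAV, at 4.38 FPKM against 7.54 (log2 fold change -0.78, q = 0.0217, authors' deposited table). In that comparison Sparc, a matrix protein that binds collagen and is abundant in glia, rose, at 255 FPKM against 133 in wild type (0.94, q = 0.00312), and 17 of 22 listed genes had higher values. Among the 17, Loxl1 had to be higher, since it is listed there only through R6/1. Over all rows without small RNAs 52.4% had higher values in that comparison. With Elk-1 AAV 0 of 22 were called, and Sparc was 177 FPKM against 262 with control AAV (-0.56, q = 0.167, authors' deposited table). Over all rows 5.34% were called lower at 8 weeks, 1.97% in CHL2 and 2.51% with control AAV, where 0.724% were called higher.

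Other matrix lists gave single calls, at 8 weeks in a table where 6.12% of all rows were called and in CHL2 where 3.65% were. Of 7 listed collagen receptors, Itga11, an integrin chain for fibrillar collagen, fell in R6/1 at 8 weeks at 0.469 FPKM against 0.876 (log2 fold change -0.90, q = 0.0451, authors' deposited table), and 0 were called in the other tables. Of 23 listed matrix glycoproteins and basement membrane genes, Tnc, encoding tenascin C, fell at 8 weeks at 0.859 FPKM against 1.38 (-0.68, q = 0.0379), and 0 of the list were called elsewhere. Of 10 listed proteases and inhibitors, the membrane protease Mmp17 fell at 8 weeks at 51.4 FPKM against 72.5 (-0.50, q = 0.0111), and the inhibitor Timp2 rose in CHL2 at 192 FPKM against 144 (0.42, q = 0.0329, authors' deposited tables).

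Markers of meningeal fibroblasts, the cells that make most fibrillar collagen and proteoglycan at the brain surface, stand beside the proteoglycan values. Of 24 markers 14 to 16 were listed per table, none of them at 0, and Foxc2, Foxd1, Tbx18 and Twist1 were among those with no row in any table. In CHL2, where Dcn and Fmod rose, the listed markers summed to 129 FPKM against 112 in wild type, with 8 of 15 values higher and 1 called, Nov, at 38.5 FPKM against 20.3, which made up the gap between the sums. In R6/1 with control AAV, where Dcn and Prelp rose, they summed to 231 FPKM against 143, with 13 of 14 values higher, Slc22a6 listed only through R6/1, and Igf2 and Igfbp2 called (authors' deposited tables). Both of these are also expressed in choroid plexus. At 8 weeks, where Fmod rose, they summed to 111 FPKM in R6/1 against 137 in wild type, with Aldh1a2 called higher and Igf2, Igfbp2, Nov and Slc13a4 called lower. There 10 of 16 values were higher and the median log2(FPKM + 1) change was 0.068, on the other side from the sum. Slc22a6, among the 10, had to be higher, since it is listed at 8 weeks only through R6/1. At 4 weeks the sum was 102 FPKM against 98.9, and with Elk-1 AAV 247 FPKM against 237, with 0 called in both. The largest values in the sums were those of Igf2, Igfbp2, Nov and Mgp. With Elk-1 AAV Aldh1a2 was 1.84 FPKM against 4.29 with control AAV (q = 0.370), and Slc6a13 was 3.69 against 6.47 (q = 0.668). Efemp1, Igf2, Igfbp2, Islr, Mgp and Slc13a4 lay the other way there. In CHL2 Aldh1a2 was 1.38 FPKM against 0.730 (q = 0.0652) and Slc6a13 1.81 against 0.988 (q = 0.0589), not called. The values of Crabp2, Efemp1, Fbln1, Igfbp2, Mgp, Slc26a2 and Slc6a20a were the lower ones in CHL2, also not called. The part of meningeal tissue, and that of hypothalamic and septal tissue, in the proteoglycan differences was not tested.

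The remaining marker lists gave these counts. Astrocyte markers were called in 0 of 10 cases in every table. Microglial markers were called with Elk-1 AAV alone, where C1qa, C1qb and C1qc were higher. Oligodendrocyte markers were called in CHL2 alone, with 5 of 11 lower. Cortical excitatory neuron markers were lower in R6/1 at 8 weeks in 6 of 12 cases and with control AAV in 5 of 12, and 0 were called in the other tables. Of the thalamic markers, 6 of 8 were higher in R6/1 with control AAV and 4 of 8 lower with Elk-1 AAV, while Calb2 and Slc17a6 were higher at 8 weeks and in CHL2 and Prkcd lower at 4 weeks (authors' deposited tables). Among the 6, Lhx9 had to be higher, since it is listed there only through R6/1, at 1.59 FPKM against 0.277. Of all rows, 0.724% were called higher with control AAV and 0.276% lower with Elk-1 AAV. The sums of the thalamic markers were 67.7 FPKM in R6/1 against 77.0 in wild type at 4 weeks, 64.5 against 50.2 at 8 weeks, 95.3 in CHL2 against 72.9, 146 in R6/1 with control AAV against 58.5 in wild type and 56.9 with Elk-1 AAV against 149.9 with control AAV. Their part in the members' differences was not tested.

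**Figure D5:**
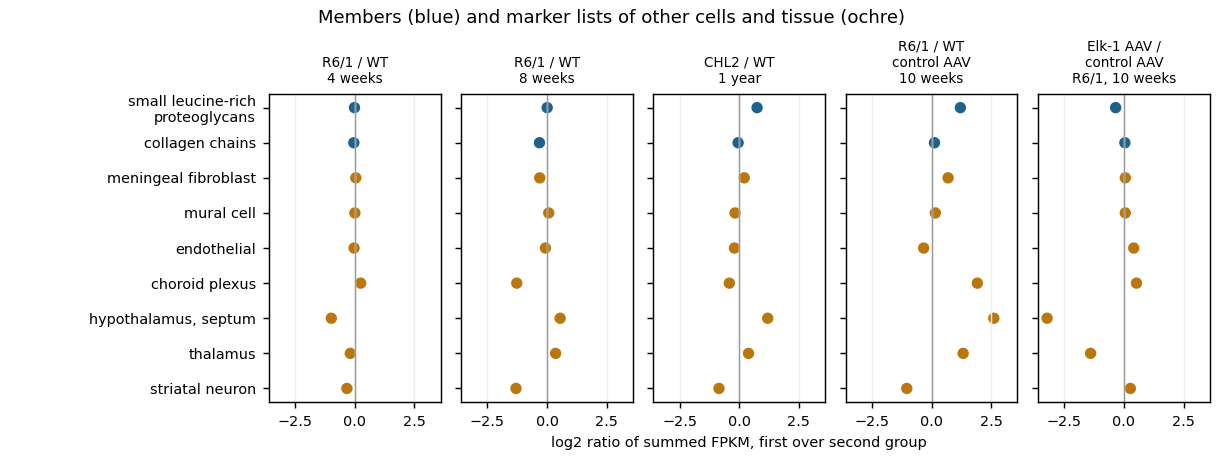
Log2 ratio of summed FPKM, first over second group, for the proteoglycans and collagen chains (blue) and for marker lists of other cells and neighbouring tissue (ochre), by comparison. The proteoglycans lie right of 0 in CHL2 (31.1 against 18.5 FPKM) and with control AAV (36.7 against 15.9 FPKM), where the hypothalamus and septum markers lie right of 0 as well. These markers also lie right of 0 in R6/1 at 8 weeks (46.4 against 31.7 FPKM) and left of it at 4 weeks (78.2 against 154 FPKM). The proteoglycans lie close to 0 in both.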

How the data were processed

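Per the labels' protocols, TruSeq libraries were made from total striatal RNA. The tools and build were Cuffdiff, Cufflinks, Bowtie, TopHat and mm9, per the submitters' processing notes; for versions, gene annotation and strandedness the sources used here give nothing. In 5 tables the authors deposited 1 pooled FPKM per group and gene, the log2 fold change of these FPKM values, and a p-value and q-value; p-values come in steps of 5e-05. Depth and library values are unknown, so no SD, interval, limma fit or test over libraries could be computed, and calls are the deposited q below 0.05.

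From the deposited FPKM, log2(FPKM + 1) changes, list sums and chain ratios were computed with Python 3.11.15, pandas 2.3.3 and numpy 2.4.6; the added 1 understates changes of low genes. The authors' log2 fold change matched the FPKM ratio within 0.01 for all members. The Benjamini-Hochberg adjustment of p-values, used where rows were filtered at 0.5 FPKM, and a median of changes were tested on simulated data. The counting of deposited calls was not. The members, 5 pathway lists and 11 marker lists were chosen with earlier results of these data known. Named are every called member, the 8 proteoglycans, and per class the highest member and the uncalled member with the largest change per table; the partner chains Col6a2, Col9a2 and Col1a2 were added after their values were seen. The R6/1 control-AAV pool is in both 10-week tables, scaled separately: its member values differ by a median ratio of 1.02. Alternatives were the q threshold, a floor of 0.5 FPKM, the pseudocount, centring, and leaving out members of shared position.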

Additional observations from a re-analysis of the deposited data

How the results depend on the processing

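The counts of called members held within 1.5 times under most of the settings tried. With q below 0.01 in the authors' deposited tables, 0 members were lower at 4 weeks (1 at q below 0.05), and in R6/1 with control AAV 1 was higher and 0 lower (4 and 1). With q below 0.1, 3 members were lower in CHL2 (1). Over rows with a mean of at least 0.5 FPKM, 0 were lower at 4 weeks, since Col6a5 lies under that floor. Leaving out members of shared position moved no count beyond 1.5 times. The member median kept its sign in every table. With a pseudocount of 0.1 it was -0.086 at 4 weeks, -0.0515 at 8 weeks, 0.14 in CHL2, 0.63 with control AAV and -0.15 under Elk-1 AAV. With members of at least 0.5 FPKM it was -0.043 at 4 weeks and 0.105 in CHL2. Centred on all rows it was -0.039 at 8 weeks, 0.47 with control AAV and -0.14 under Elk-1 AAV. No paired analysis was possible because the deposited tables hold 1 pooled value per group, and leaving out each replicate was not run for the same reason. Depth is unknown, and 22 members average under 2 FPKM, where a missed threshold says little.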

Other observations

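Several members are neighbours in the genome, by the mm9 positions listed by the authors. Dcn and Lum lie 47.3 kb apart on chromosome 10, Prelp and Fmod 116 kb apart on chromosome 1, Col6a2 and Col6a1 85.4 kb apart on chromosome 10, Col3a1 and Col5a2 24.6 kb apart on chromosome 1, and Col6a5 and Col6a4 29.7 kb apart on chromosome 9. Of these pairs, none had both genes called in the same authors' deposited table.

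Members are long genes: their longest transcripts in GENCODE M21 had a median of 5564 bases at 4 weeks, against 3432 for all matched genes, and between 5157 and 5588 in the other tables. Genes are not independent replicates; across them the log2(FPKM + 1) change correlated with transcript length at a Spearman coefficient of 0.47 at 4 weeks, -0.11 at 8 weeks, 0.39 in CHL2, -0.055 with control AAV and -0.17 under Elk-1 AAV. Genes at least as long as the members' lower quartile had a median change of 0.071 at 4 weeks, -0.020 at 8 weeks and 0.084 in CHL2. For these genes it was 0.0030 with control AAV and -0.011 under Elk-1 AAV. The members' medians were -0.048, -0.034, 0.083, 0.48 and -0.13 in the same order. The part of the length trend in the members' changes was not tested.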
